A study of Mus musculus with 12 samples.

Results

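The genes described here encode receptors that recognise dying cells and the bridging proteins that link those receptors to them. They were taken by symbol from the deposited table of expected counts, and all 10 were present among its 18467 genes: Mertk, Axl, Tyro3, Gas6, Pros1, Timd4, Mfge8, Itgav, Itgb5 and Stab2. Transcripts were measured by bulk RNA sequencing in 12 libraries of macrophages sorted from the marrow of femur and tibia, 3 libraries in each of 4 groups, each replicate from different mice. The mice of the metastasis model were female Albino B6 animals that received cells of E0771, a mouse breast cancer line, through the caudal artery at 8 weeks of age, and the normal groups came from healthy control mice. The age and sex of the controls and the time between injection and sorting are not given in the sources used here. General macrophages were sorted as CD11b+ F4/80+ live single cells and niche macrophages as VCAM1+ CD163+ CCR3+ cells, and both populations were taken from both kinds of marrow. Niche macrophages are called so by the series, which concerns the erythroblastic niche, where developing red cells mature around a central macrophage.

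Dying cells expose phosphatidylserine, a lipid normally kept on the inner face of the plasma membrane, and phagocytes bind it either directly or through a soluble bridge. The TAM receptor tyrosine kinases TYRO3, AXL and MERTK bind it through GAS6 and protein S (Pros1), the integrin of the alpha V and beta 5 chains binds it through MFG-E8, and TIM-4 (Timd4) and stabilin-2 (Stab2) bind it themselves. In the erythroblastic niche the central macrophage also engulfs the nuclei that erythroblasts expel, which expose the same lipid, and MERTK takes part in that uptake.

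The 250 bases before the RefSeq start site are shown for the 3 genes that passed the test between the populations and for Timd4, since their transcripts were higher in the same libraries. They were read 5′ to 3′ on the strand of each gene from the RefSeq promoter table for GRCm38.p6, where all 10 genes matched. Capitals mark GAGGAA, a core bound by ETS factors such as PU.1, or TGCTGA, a half-site of MAF factors, on either strand, so that TTCCTC and TCAGCA are the same motifs read on the other strand. The 2 motifs do not contain each other.
Mertk: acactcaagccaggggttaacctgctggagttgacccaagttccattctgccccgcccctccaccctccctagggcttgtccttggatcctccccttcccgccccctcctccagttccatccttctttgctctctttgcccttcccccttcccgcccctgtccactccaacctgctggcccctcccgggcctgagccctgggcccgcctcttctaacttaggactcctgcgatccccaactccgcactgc
Axl: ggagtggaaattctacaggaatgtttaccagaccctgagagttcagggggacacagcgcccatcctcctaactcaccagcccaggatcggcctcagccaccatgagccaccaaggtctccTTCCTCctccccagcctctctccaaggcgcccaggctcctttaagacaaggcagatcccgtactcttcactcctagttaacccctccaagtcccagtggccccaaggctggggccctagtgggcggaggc
Itgav: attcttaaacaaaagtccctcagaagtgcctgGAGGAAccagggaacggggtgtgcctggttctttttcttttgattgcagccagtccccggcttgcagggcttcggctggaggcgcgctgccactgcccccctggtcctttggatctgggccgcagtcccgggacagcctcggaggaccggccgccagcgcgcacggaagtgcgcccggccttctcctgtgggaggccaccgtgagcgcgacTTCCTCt
Timd4: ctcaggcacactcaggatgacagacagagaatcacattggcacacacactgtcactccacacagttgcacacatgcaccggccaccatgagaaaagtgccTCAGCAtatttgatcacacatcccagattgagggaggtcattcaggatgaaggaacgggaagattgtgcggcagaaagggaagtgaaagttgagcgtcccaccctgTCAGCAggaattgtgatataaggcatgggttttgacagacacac

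The Mertk window lies at chr2:128698665-128698914 on the plus strand, the Axl window at chr7:25788734-25788983 on the minus strand, the Itgav window at chr2:83724147-83724396 on the plus strand and the Timd4 window at chr11:46810549-46810798 on the plus strand. The Axl window held 1 GAGGAA, starting 130 bases before the start site on the reverse strand. The Itgav window held 2, at 218 bases on the gene's own strand and at 7 bases on the reverse strand, whereas the Timd4 window held 2 copies of TGCTGA, at 150 and 44 bases on the reverse strand. Neither motif was found in these 250 bases of Mertk. The end of the Mertk promoter entry was in no annotated transcript of the gene, unlike those of Axl, Itgav and Timd4, so the placing of its window is less sure. GAGGAA occurred in 3 of the 10 genes (Axl, Itgav and Mfge8) and in 23.3% of 32851 RefSeq promoters of the same length, and TGCTGA in 1 of 10 and in 16.1%. A match describes the letters of the window and is not evidence of binding.

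Library totals ranged from 13687945 to 30332417 counts, and between 7689 and 12658 genes had at least 10 counts. Levels are given as CPM, counts scaled to the size of each library with TMM factors, on which 3 counts, the limit taken for detection, correspond to between 0.109 and 0.243 CPM. The 3 sorting antigens of the niche population matched the labels: Vcam1 transcripts ranged from 938 to 2248 CPM in niche libraries and from 47.6 to 92.5 CPM in general ones, and Cd163 and Ccr3 did not overlap between the populations either. Adgre1, which encodes F4/80, ranged from 144 to 589 CPM in niche libraries and from 64.0 to 145 CPM in general ones, and Itgam, which encodes CD11b, from 328 to 567 CPM and from 503 to 852 CPM. General libraries carried neutrophil markers at 13700 to 22300 CPM in sum over 10 genes and monocyte markers at 6330 to 6810 CPM over 10 genes, against 9430 to 11400 and 1400 to 2120 CPM in niche libraries. Niche libraries carried erythroid markers at 536 to 1550 CPM (9 of 10 listed genes in the table) and B and plasma cell markers at 1100 to 3920 CPM (10 of 10), against 12.7 to 106 and 97.2 to 265 CPM in general libraries. Stromal and osteoblast markers (6 of 8) summed to 24.2 to 141 CPM in niche and 0.476 to 24.8 CPM in general libraries, and their member Kitl was called in normal marrow (log2 fold change 8.09 ± 1.46 SE, edgeR adjusted p = 0.00364). Dendritic cell markers (7 of 8) summed to 50.3 to 292 and 51.8 to 104 CPM, with Irf8 called in normal marrow (log2 fold change 1.77 ± 0.46 SE, edgeR adjusted p = 0.0478), and T and NK cell markers (8 of 8) to 157 to 453 and 106 to 201 CPM. In bulk samples, fewer cells of a type and less RNA per cell cannot be told apart. The part that cells other than macrophages play in the values of the clearance genes was not tested.

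Niche macrophages carried far more transcript of the receptors Mertk and Axl than general macrophages, in normal and in metastatic marrow, and more Itgav in normal marrow. Timd4 and, in normal marrow, Stab2 and Itgb5 were also higher in niche libraries but did not pass the test across all genes. In metastatic marrow Stab2 did not pass either, and its niche libraries held 660, 2 and 53 counts. The bridging proteins Gas6 and Mfge8 and the receptor Tyro3 were at or below 3 counts in most libraries, and the bridging protein Pros1 did not pass in either marrow. Between metastatic and normal marrow none of the clearance genes passed the test in either population.

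**Figure D1:**
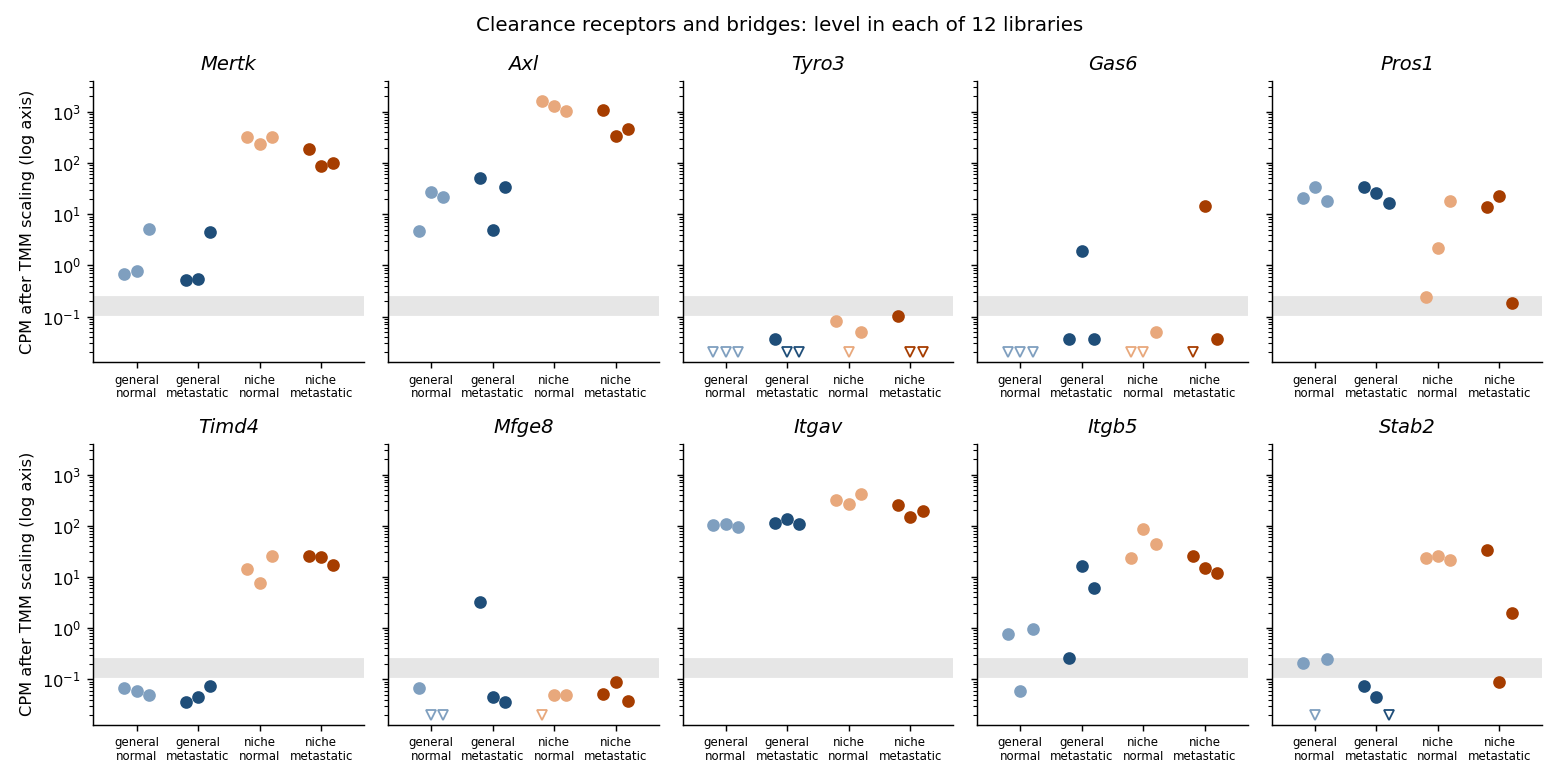
Level of each clearance gene in each of the 12 libraries, in CPM after TMM scaling on a logarithmic axis, with 1 point per library and the 4 groups side by side. The grey band spans the CPM value of 3 counts (0.109 to 0.243), and open triangles at the foot mark libraries with 0 counts; Mertk, Axl and Timd4 lie higher in every niche library than in every general library, whereas Tyro3 stays at or under the band.

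MERTK is the TAM receptor that tissue macrophages use to engulf dying cells. Its gene lies at chr2:128698956-128802894 on the plus strand of GRCm38 (GENCODE M21). General macrophages from normal marrow held 0.687, 0.771 and 5.20 CPM of Mertk in replicates 1, 2 and 3, and those from metastatic marrow held 0.511, 0.542 and 4.39 CPM. Niche macrophages from normal marrow held 327, 232 and 328 CPM in libraries A, B and C, and those from metastatic marrow held 189, 88.0 and 99.7 CPM in replicates 1, 2 and 3. Every niche library lay above every general library, and within each general group replicate 3 lay several times above the other libraries. The group means were 2.22 ± 2.58 and 1.82 ± 2.23 CPM in general macrophages from normal and metastatic marrow, and 296 ± 55.0 and 125.5 ± 55.1 CPM in niche macrophages (SD, n = 3 each). Mertk was therefore 133 times higher by the ratio of means in normal marrow (log2 fold change 7.04 ± 0.96 SE, edgeR quasi-likelihood test, Benjamini-Hochberg adjusted p = 0.000208). In metastatic marrow the ratio was 69.1 (log2 fold change 6.10 ± 0.92 SE, edgeR adjusted p = 0.000993). Without general replicate 3 of the same marrow, the log2 fold change was 8.66 in normal and 7.87 in metastatic marrow. An antisense gene, Gm14011, and a snoRNA gene, Gm23172, overlap Mertk, and since the strand setting of the counting is not given, reads from the antisense gene and Mertk cannot be told apart.

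AXL, the TAM receptor that binds GAS6 most tightly, was the most abundant transcript of the clearance genes in niche libraries. Its gene lies at chr7:25757273-25788705 on the minus strand. Niche macrophages held 1631, 1284 and 1036 CPM of Axl in normal marrow and 1064, 341 and 472 CPM in metastatic marrow. General macrophages held 4.74, 26.9 and 22.0 CPM in normal marrow and 50.65, 4.84 and 33.4 CPM in metastatic marrow. The populations did not overlap, but the general libraries differed among themselves by up to 10.5 times in metastatic marrow. The group means were 17.9 ± 11.6 and 29.6 ± 23.1 CPM in general macrophages from normal and metastatic marrow and 1317 ± 299 and 626 ± 385 CPM in niche macrophages (SD, n = 3 each). Axl was 73.7 times higher in niche macrophages of normal marrow (log2 fold change 6.20 ± 0.76 SE, edgeR adjusted p = 7.64e-05). The ratio was 21.1 in metastatic marrow (log2 fold change 4.40 ± 0.69 SE, edgeR adjusted p = 0.00156). That log2 fold change was 5.03 without general metastatic replicate 1 and 3.77 without niche metastatic replicate 1. With limma-voom, Axl did not pass in either marrow, at adjusted p = 0.0845 and 0.0613. TYRO3, the third receptor of the family, is known mainly from the nervous system, and Tyro3 never exceeded 2 counts in a library: the general macrophages held 0, 0 and 0 counts in normal and 1, 0 and 0 in metastatic marrow, and the niche macrophages held 1, 0 and 1 and then 2, 0 and 0.

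Per kilobase of the longest annotated transcript, the scale on which genes can be compared, Axl stood at 309 ± 70.0 CPM per kilobase in niche macrophages of normal marrow and Mertk at 68.8 ± 12.8 (SD, n = 3). The ratio of the Axl to the Mertk level per kilobase lay between 3.19 and 5.69 in the 6 niche libraries. In the general libraries, where Mertk rested on few counts, it lay between 4.28 and 100. Itgav followed at 47.4 ± 10.8 CPM per kilobase in niche macrophages of normal marrow, with a range over libraries that overlapped that of Mertk, although Mertk was higher in each of the 3, then Itgb5 at 15.7 ± 9.95 and Timd4 at 7.24 ± 4.09, which overlapped each other. Stab2 at 2.86 ± 0.272 and Pros1 at 2.06 ± 2.96 also overlapped, and the remaining 3 genes were near 0. In general macrophages of normal marrow the order was different, with Itgav at 14.3 ± 0.982, Pros1 at 7.37 ± 2.71, Axl at 4.19 ± 2.73 and Mertk at 0.516 ± 0.60 CPM per kilobase, where Axl and Pros1 overlapped. The order depended on the length used: with the median length of each gene's transcripts, Itgav at 303 lay above Mertk at 84.0 CPM per kilobase in niche macrophages of normal marrow.

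**Figure D2:**
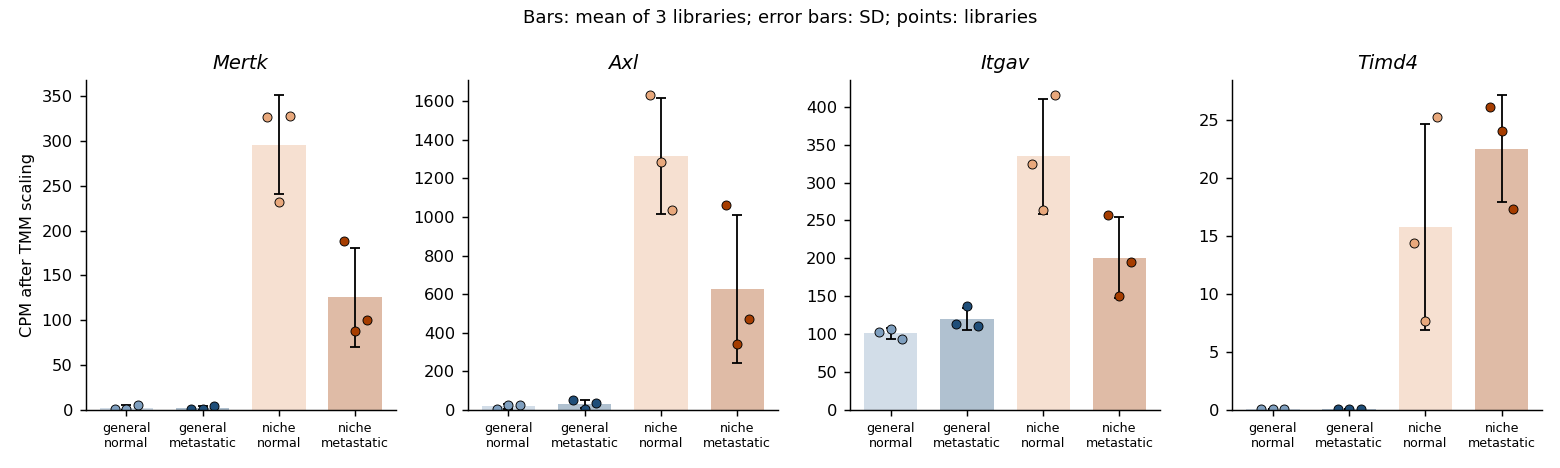
Levels of Mertk, Axl, Itgav and Timd4 in CPM after TMM scaling on linear axes, 1 panel per gene with its own axis starting at 0. Bars are means of 3 libraries, error bars are SD and points are libraries; the niche bars of Mertk, at 296 and 125.5 CPM, stand against general bars of 2.22 and 1.82 CPM.

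The bridging ligands of the TAM receptors followed another pattern. GAS6 is the vitamin K-dependent ligand of all TAM receptors, and its gene lies at chr8:13465374-13494490 on the minus strand, overlapping Tmem255b on the other strand. Gas6 had 0 counts in each general library of normal marrow and 1, 42 and 1 counts in those of metastatic marrow, and 0, 0 and 1 counts in niche libraries of normal marrow and 0, 330 and 1 counts in those of metastatic marrow. Nearly all of its counts therefore came from 2 libraries, both replicate 2 of metastatic marrow. Summed over the niche libraries, metastatic marrow held 331 counts and normal marrow 1, a ratio of 248.5 per effective library size (95% exact binomial interval 44.3 to 9845, counting error only), which rests on that 1 library. Over the general libraries, 44 counts against 0 gave a level at least 9.81 times higher in metastatic marrow, against a floor of 3 counts over the group, again from 1 library. Gas6 did not pass the filter on low counts and was not tested.

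Protein S, the other vitamin K-dependent TAM ligand, binds MERTK and TYRO3 and is also an anticoagulant. Pros1, at chr16:62854307-62929346 on the plus strand, held 20.4, 34.6 and 18.1 CPM in general macrophages of normal marrow and 33.9, 26.5 and 16.9 CPM in those of metastatic marrow. Niche macrophages held 0.244, 2.14 and 18.0 CPM in normal marrow and 13.9, 22.9 and 0.185 CPM in metastatic marrow. The general libraries lay close together, while the niche libraries ranged from the detection limit to the general level in both marrows. In normal marrow every niche library lay below every general library, as in 8.78% of tested genes, and in metastatic marrow the populations overlapped. Neither difference passed (log2 fold change -1.84 ± 1.61 SE, edgeR adjusted p = 0.607 in normal marrow, and -1.07 ± 1.58 SE, edgeR adjusted p = 1 in metastatic marrow). Single libraries moved these values, to -4.33 without niche normal library C and to between -1.87 and -0.49 without niche metastatic replicate 2 or 3.

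Among the direct receptors of phosphatidylserine, TIM-4 tethers dying cells to resident macrophages. Timd4 lies at chr11:46810800-46844332 on the plus strand. General macrophages held 1, 1 and 1 counts of Timd4 in normal marrow and 1, 1 and 2 counts in metastatic marrow, all at or below the detection limit. Niche macrophages held 14.4, 7.60 and 25.2 CPM in normal marrow (177, 153 and 502 counts) and 26.1, 24.0 and 17.3 CPM in metastatic marrow (517, 550 and 469 counts). Timd4 was thus read clearly in 6 of 6 niche libraries and in 0 of 6 general libraries, with means of 15.7 ± 8.88 and 22.5 ± 4.59 CPM in the niche groups (SD, n = 3). Summed over normal marrow, 832 counts against 3 gave a ratio of 272 (95% exact binomial interval 92.9 to 1324, counting error only). In the fit across all genes Timd4 did not pass in either marrow (edgeR adjusted p = 0.0706 and 0.114). It passed in both with DESeq2 (adjusted p = 9.69e-07 and 2.20e-08) and with limma-voom (adjusted p = 0.0285 and 0.00534). With both marrow states averaged in 1 contrast, an alternative added after the data were seen, its adjusted p was 0.00387 (edgeR). Timd4 was admitted to the test only through its niche libraries, where it is high, so these adjusted p-values are no separate support.

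Stabilin-2 is a scavenger receptor known from the endothelium of liver and marrow sinusoids, and it also binds phosphatidylserine. Stab2, at chr10:86841198-87008025 on the minus strand, held 23.8, 25.7 and 21.2 CPM in niche macrophages of normal marrow, whose libraries lay close together. Those of metastatic marrow held 33.3, 0.0874 and 1.96 CPM (660, 2 and 53 counts), so that 1 library lay above all of the normal ones and 1 was at the detection limit. General macrophages held 3, 0 and 5 counts in normal and 2, 1 and 0 counts in metastatic marrow. In normal marrow the ratio of means was 155 (log2 fold change 7.22 ± 2.67 SE, edgeR adjusted p = 0.195, limma-voom adjusted p = 0.0414), and in metastatic marrow 715 counts against 3 gave a ratio of 263 (95% exact binomial interval 89.5 to 1277, counting error only; edgeR adjusted p = 0.391). The latter rests on niche metastatic replicate 1, without which the log2 fold change was 4.50 against 8.02. Stab2 was admitted to the test only through its niche libraries, so its adjusted p-values are no separate support. Endothelial markers (5 of 8 listed genes in the table, with Cdh5 at no more than 1 count in any library) summed to 0.0812, 0.0497 and 27.0 CPM in niche libraries A, B and C of normal marrow and to 0.202, 13.2 and 20.6 CPM in niche metastatic replicates 1, 2 and 3. In general libraries the sum lay between 0.0452 and 3.87 CPM. The part of endothelial cells in the Stab2 values was not tested. Several antisense genes and pseudogenes overlap Stab2 on the other strand, and their reads cannot be told apart from its own.

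MFG-E8 is the bridge between phosphatidylserine and alpha V integrins. Mfge8, at chr7:79133768-79149060 on the minus strand, had 1, 0 and 0 counts in general macrophages of normal marrow and 89, 1 and 1 counts in those of metastatic marrow. Niche macrophages had 0, 1 and 1 counts in normal and 1, 2 and 1 counts in metastatic marrow. Only general metastatic replicate 1 was above the limit of 3 counts, and the summed ratio of 60.9 against normal marrow (95% exact binomial interval 10.7 to 2431, counting error only) rests on that library. Mfge8 was not tested, for the same reason as Gas6 and Tyro3.

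The integrin chains that bind MFG-E8 were read in both populations. The alpha V chain pairs with several beta chains, and Itgav, at chr2:83724397-83806916 on the plus strand, varied less between general libraries than any other tested clearance gene, with a coefficient of variation of 6.875% in normal and 12.02% in metastatic marrow. General macrophages held 102, 107 and 93.3 CPM of Itgav in normal marrow and 114, 137 and 110.1 CPM in metastatic marrow. Niche macrophages held 325, 264 and 415 CPM in normal marrow and 257, 150.3 and 194.5 CPM in metastatic marrow. Every niche library again lay above every general one, by a narrow gap in metastatic marrow. Itgav was 3.32 times higher in niche macrophages of normal marrow (log2 fold change 1.73 ± 0.31 SE, edgeR adjusted p = 0.00343). In metastatic marrow the ratio was 1.67 and did not pass (log2 fold change 0.74 ± 0.30 SE, edgeR adjusted p = 0.523). Gm13684 and the pseudogene Dnmt3l-ps1 overlap Itgav on the other strand.

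The beta 5 chain pairs with alpha V alone. Itgb5, at chr16:33829665-33949338 on the plus strand, held 0.756, 0.0593 and 0.949 CPM in general macrophages of normal marrow and 0.255, 16.5 and 5.96 CPM in those of metastatic marrow. Niche macrophages held 23.2, 87.2 and 43.9 CPM in normal marrow and 25.8, 14.95 and 11.98 CPM in metastatic marrow. In normal marrow the populations did not overlap, with a ratio of means of 87.5 (log2 fold change 6.43 ± 1.77 SE, edgeR adjusted p = 0.0628). They overlapped in metastatic marrow, where general replicate 2 lay above niche replicates 2 and 3 (log2 fold change 1.21 ± 1.41 SE, edgeR adjusted p = 1). That value was 2.49 without general metastatic replicate 2 and 0.64 without general metastatic replicate 1. Without general metastatic replicate 1, or without niche normal library A, Itgb5 passed in normal marrow, as it did with DESeq2 (adjusted p = 7.04e-06).

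Counted together, 7 of the 10 clearance genes passed the filter on low counts and were tested, Timd4 and Stab2 only through their niche libraries. In normal marrow 3 of the 7 were called higher in niche macrophages (Mertk, Axl and Itgav) and 0 lower, where 1.5% of 12882 tested genes were called higher and 0.97% lower. In metastatic marrow 2 of the 7 were called higher (Mertk and Axl) and 0 lower, where 0.574% of tested genes were called higher and 0.256% lower. With library size as the only scaling, the split of all calls there was 96 higher and 20 lower, against 74 and 33. Genes whose niche libraries all lay above all general libraries made up 10% of tested genes in normal marrow and 8.34% in metastatic marrow, and among them were 4 (Mertk, Axl, Itgav and Itgb5) and 3 (Mertk, Axl and Itgav) of the 5 clearance genes whose test did not rest on their niche libraries alone. Timd4 and Stab2 are left out of these counts, since the filter admitted them through the group where they are high. Leaving out each library in turn gave 3 or 4 called clearance genes in normal marrow and 2 in metastatic marrow. With both marrow states averaged, 3 of those 5 were called (Mertk, Axl and Itgav), where 2.59% of tested genes were called higher. Stab2, left out for the reason above, had an edgeR adjusted p of 0.0277 in that contrast. This is no separate support, and the contrast was added after the data were seen.

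**Figure D3:**
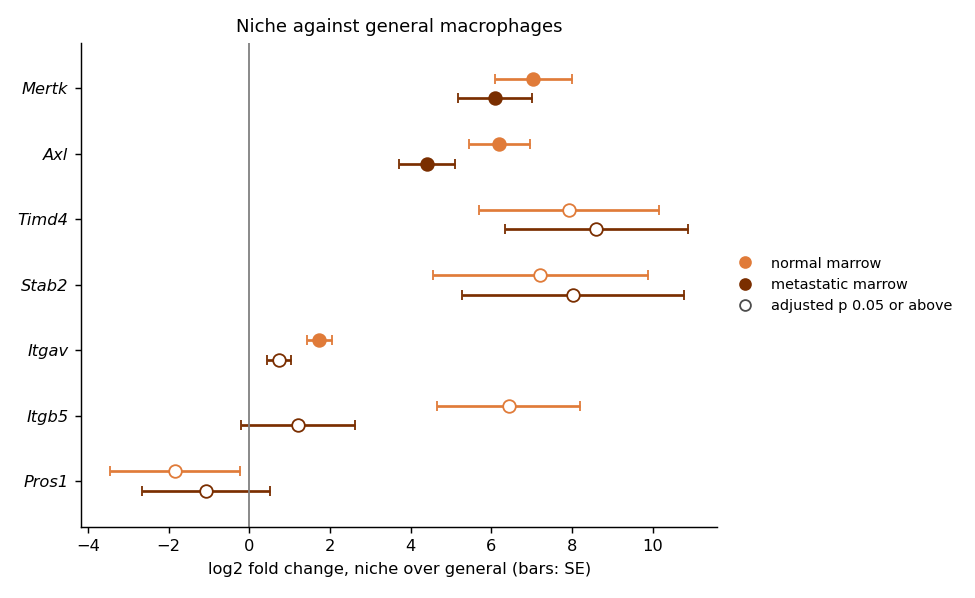
Log2 fold change of niche over general macrophages for the 7 tested clearance genes, with SE as bars, in normal and metastatic marrow; filled points have an adjusted p under 0.05 (edgeR). Mertk (7.04 and 6.10) and Axl (6.20 and 4.40) are filled in both marrows and Itgav (1.73) in normal marrow; the fitted values of Timd4 and Stab2 rest on general libraries at or near the detection limit.

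The comparison of metastatic with normal marrow asks whether the clearance genes differ in mice carrying E0771 metastases. In niche macrophages Mertk was at 125.5 CPM on average against 296 CPM, and each metastatic library lay below each normal library (ratio 0.424, log2 fold change -1.24 ± 0.74 SE, edgeR adjusted p = 0.484). Itgav also lay lower in each metastatic niche library (ratio 0.60, log2 fold change -0.74 ± 0.30 SE, edgeR adjusted p = 0.381), and Axl overlapped (ratio 0.475, log2 fold change -1.07 ± 0.61 SE, edgeR adjusted p = 0.453). None of these passed, and 7.11% of tested genes had all metastatic niche libraries below all normal ones. Of the 5 surface antigens used in the sorts, 3 also had all metastatic niche libraries below all normal ones, Vcam1 with -0.89 ± 0.26 SE on the log2 scale (edgeR adjusted p = 0.313), Ccr3 with -1.46 ± 0.37 SE (edgeR adjusted p = 0.208) and Adgre1 with -1.34 ± 0.33 SE (edgeR adjusted p = 0.208), and none of them passed either. Cd163 had -0.74 ± 0.66 SE with overlapping groups (edgeR adjusted p = 0.745), and Itgam 0.02 ± 0.26 SE (edgeR adjusted p = 0.997). The part of the sorted cells' makeup in these values was not tested.

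The other tested clearance genes overlapped between the marrows in niche macrophages, with log2 fold changes of -1.55 ± 1.42 SE for Itgb5, -0.997 ± 2.05 SE for Stab2, 0.52 ± 1.63 SE for Timd4 and 0.86 ± 1.58 SE for Pros1, none of which passed. Leaving out 1 library gave -4.52 (niche metastatic replicate 1) to -0.42 (niche metastatic replicate 2) for Stab2, and 0.038 (niche metastatic replicate 2) to 3.34 (niche normal library C) for Pros1. In general macrophages the 3 metastatic libraries held more Itgav than the 3 normal ones (log2 fold change 0.25 ± 0.30 SE, edgeR adjusted p = 1), a pattern shared by 7.27% of tested genes. Itgb5 had the lowest unadjusted p of the clearance genes there, 0.0292, with an edgeR adjusted p of 0.944 and a log2 fold change of 3.67 ± 1.56 SE. That log2 fold change was between 2.39 and 4.24 with 1 library left out. Called clearance genes numbered 0 of 7 in either population by edgeR and limma-voom, and 0 of 6 by DESeq2, which gave Stab2 no adjusted p. Across all tested genes edgeR called 2 (0.0155%) in general and 1 (0.00776%) in niche macrophages, with 660 (5.12%) and 1642 (12.7%) genes at an unadjusted p under 0.05, and DESeq2 called 141 and 954. Of the clearance genes, Itgb5 in general and Itgav in niche macrophages, the latter with an unadjusted p of 0.0249, were below that unadjusted threshold.

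Whether the effect of metastasis differed between the populations was tested as the difference of the 2 log2 fold changes. The difference, niche minus general, was -0.94 ± 1.06 SE for Mertk, -1.80 ± 0.86 for Axl, -0.99 ± 0.43 for Itgav and -5.22 ± 2.10 for Itgb5. It was 0.77 ± 2.22 SE for Pros1, 0.69 ± 2.44 for Timd4 and 0.81 ± 2.58 for Stab2, each with an edgeR adjusted p of 0.99988. Itgb5 and Itgav had unadjusted p of 0.0222 and 0.0316, and neither they nor the others passed after adjustment over all genes (edgeR adjusted p = 0.587 for Itgb5, 0.610 for Itgav, 0.625 for Axl and 0.930 for Mertk). With 1 library left out, the difference for Itgb5 was between -5.80 and -3.95. Across all tested genes edgeR called 0 (0%), with 1016 (7.89%) genes at an unadjusted p under 0.05, limma-voom called 0 and DESeq2 called 410, none of them a clearance gene. The pattern of Itgav, higher in all general and lower in all niche libraries of metastatic marrow, was shared by 0.349% of tested genes, and its opposite by 0.179%.

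**Figure D4:**
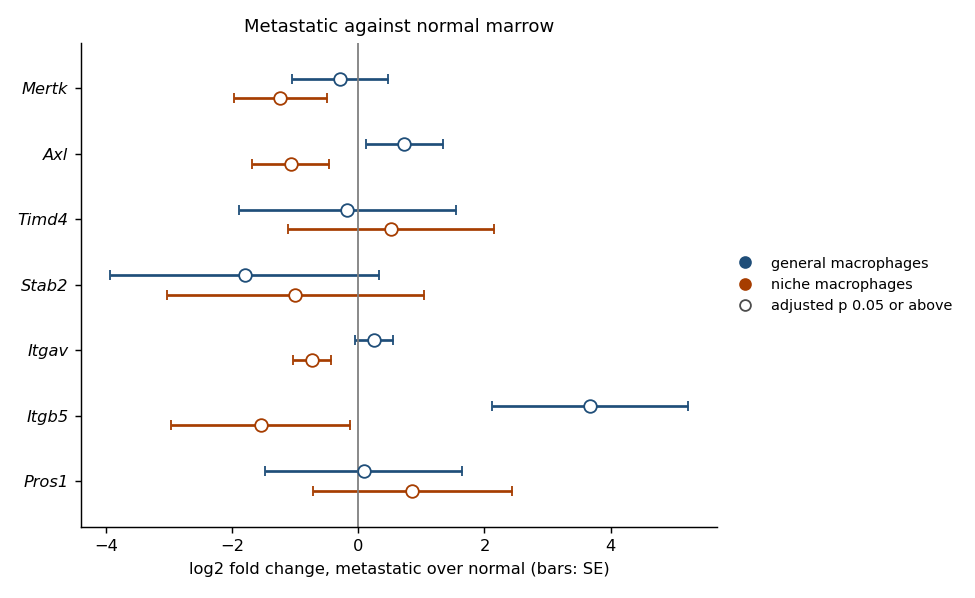
Log2 fold change of metastatic over normal marrow for the 7 tested clearance genes in general and niche macrophages, with SE as bars; no point is filled, since no adjusted p is under 0.05 (edgeR). In niche macrophages Mertk, Axl, Itgav, Itgb5 and Stab2 lie below 0 (-1.24, -1.07, -0.74, -1.55 and -0.997), and Pros1 and Timd4 above it (0.86 and 0.52).

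Clearance needs more than receptors and bridges, and 8 further lists of its genes were read in the same fit. Of the other phosphatidylserine receptors, 11 of 14 were tested and 1 was called: Cd14, a lipopolysaccharide co-receptor that also tethers apoptotic cells, rose in niche macrophages of normal marrow. It held 0.0687, 0.0593 and 0.20 CPM in general and 45.2, 53.4 and 14.9 CPM in niche macrophages (log2 fold change 8.34 ± 2.13 SE, edgeR adjusted p = 0.0426). Its log2 fold change was 9.09 without general normal replicate 3. The call held in 7 of 19 alternatives, and among the fits without 1 library only in those without niche normal library C or niche metastatic replicate 3. None of the list was called in metastatic marrow, where Lrp1, the calreticulin receptor, had the smallest p (log2 fold change 1.09 ± 0.50 SE, edgeR adjusted p = 0.562). The list's median log2 fold change was 0.08 in normal and 0.28 in metastatic marrow, against 0.19 and 0.04 over all tested genes.

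Other bridging molecules moved in both directions, with 7 of 10 tested, 1 called higher and 1 called lower in each marrow. C1qb, a chain of the complement component that coats apoptotic cells, rose from 4.45 to 13.7 CPM in general libraries to 91.9 to 329 CPM in niche libraries of normal marrow (log2 fold change 4.53 ± 0.88 SE, edgeR adjusted p = 0.00670). In metastatic marrow its log2 fold change was 3.91 ± 0.85 SE (edgeR adjusted p = 0.0297), a call lost without general metastatic replicate 3 or niche metastatic replicate 1 or 2, or in the fits of only the 6 libraries compared and of the 9 libraries whose groups share replicate numbers, the latter without a replicate block. With limma-voom it was lost in both marrows, and without general metastatic replicate 1 its log2 fold change in metastatic marrow was 4.71. Its partner chains, named after their values were seen, did not pass: C1qa had an edgeR adjusted p of 0.125 and C1qc of 0.129 in normal marrow.

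Thbs1 encodes thrombospondin-1, a bridge to CD36 and alpha V integrins, and it was lower in niche than in general macrophages. In normal marrow general libraries held 854, 825 and 819.8 CPM and niche libraries 372, 420.1 and 299 CPM, and in metastatic marrow 287.5, 242 and 275 CPM against 124, 139 and 77.3 CPM. Thbs1 fell by 1.20 on the log2 scale in normal marrow (SE 0.26, edgeR adjusted p = 0.0140) and by 1.24 in metastatic marrow (SE 0.26, edgeR adjusted p = 0.0202). The call in normal marrow was lost without any 1 of the general normal libraries or without niche normal library C, and that in metastatic marrow without general replicate 1 or niche replicate 1 or 3, with library size as the only scaling, and with only the 6 libraries compared. It was also the only gene of these lists called for metastasis, falling by 1.63 in general (SE 0.26, edgeR adjusted p = 0.0306) and by 1.68 in niche macrophages (SE 0.26, edgeR adjusted p = 0.0438), where 0.0155% and 0.00776% of tested genes were called lower. Those 2 calls held in 12 of 20 and 8 of 18 alternatives, and each was lost without any 1 of the 3 general normal libraries or without niche metastatic replicate 1. The first was also lost without any 1 of the general metastatic libraries, and the second without general metastatic replicate 2, niche normal library A or niche metastatic replicate 3. Both were lost with library size as the only scaling, and the second also with RLE size factors and with only the 6 libraries compared.

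Downstream of the receptors, 16 of 17 genes of engulfment signalling were tested and 0 were called in either marrow. Src, a kinase below integrins and TAM receptors, had the smallest p in normal marrow (log2 fold change 7.12 ± 2.14 SE, edgeR adjusted p = 0.0942) and Rac2, a small GTPase of the phagocytic cup, in metastatic marrow (-0.84 ± 0.30 SE, edgeR adjusted p = 0.416). The list's medians were 0.03 and -0.33. All 15 corpse digestion genes were tested and 1 was called in each marrow. Ctsd, the lysosomal protease cathepsin D, held 283, 223.5 and 284 CPM in general and 1028, 1219 and 894 CPM in niche macrophages of normal marrow and rose by 1.99 ± 0.26 SE on the log2 scale (edgeR adjusted p = 0.000136). The value in metastatic marrow was 1.21 ± 0.25 SE (edgeR adjusted p = 0.0205), a call lost without general metastatic replicate 1 or 2 or niche metastatic replicate 1 or 2, and with only the 6 libraries compared. The medians of that list were 0.08 and -0.13.

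Receptors for the signals by which dying cells attract phagocytes were called in neither marrow (9 of 10 tested, medians 0.57 and -0.43). P2ry12, a nucleotide receptor, had the smallest p in normal marrow (edgeR adjusted p = 0.143), and Adora2b, an adenosine receptor, in metastatic marrow, where it held 13.7, 28.5 and 21.2 CPM in general libraries and 0, 0.131 and 0 CPM in niche libraries (edgeR adjusted p = 0.207). Receptors and signals that restrain engulfment, or bind sialic acids, had 10 of 11 tested, with 2 called higher in normal and 1 in metastatic marrow and medians of -0.17 and 0.06. Siglec1, the sialoadhesin of resident macrophages, rose in both (log2 fold change 3.69 ± 0.73 SE, edgeR adjusted p = 0.00777, and 4.20 ± 0.75 SE, edgeR adjusted p = 0.00536), the call in metastatic marrow being lost with only the 6 libraries compared (adjusted p = 0.0652). Sirpa, which binds CD47 on the target cell and blocks its uptake, rose in normal marrow (log2 fold change 0.91 ± 0.23 SE, edgeR adjusted p = 0.0439). The Sirpa call held in 5 of 19 alternatives, and among the fits without 1 library only in that without niche normal library C.

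Among nuclear receptors and transcription factors tied to clearance genes, 11 of 12 were tested, with 1 called higher in each marrow and medians of 0.17 and 0.0065. Maf, a factor of resident macrophages, held 31.2, 12.2 and 16.1 CPM in general and 435, 394 and 444 CPM in niche macrophages of normal marrow. Its log2 fold change was 4.42 ± 0.41 SE there (edgeR adjusted p = 3.31e-06) and 4.87 ± 0.42 SE in metastatic marrow (edgeR adjusted p = 2.56e-06). Of the genes that shed TAM receptors, carboxylate their ligands or act in TAM feedback, 7 of 11 were tested and 0 were called. Socs3, an inhibitor of cytokine signalling, had the smallest p in normal marrow (edgeR adjusted p = 0.289) and Ifnar1, the interferon receptor chain that partners AXL in that feedback, in metastatic marrow (edgeR adjusted p = 1), with list medians of -0.18 and -0.04. For all 8 lists together, the calls sat beside shares of 2.47% of tested genes called in normal and 0.831% in metastatic marrow, and no gene of them was called for the difference of the metastasis effects.

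**Figure D5:**
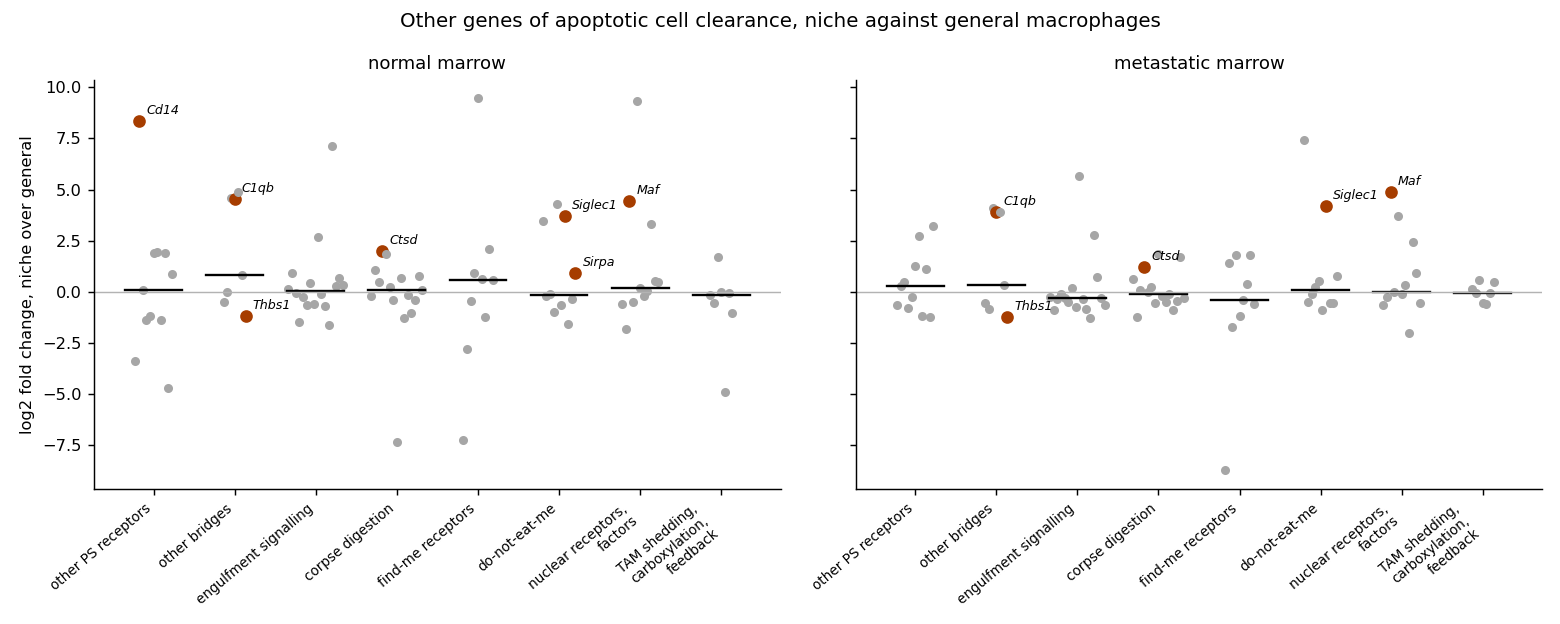
Log2 fold change of niche over general macrophages for the tested genes of 8 further clearance lists, in normal (left) and metastatic (right) marrow; each point is a gene, black lines are list medians, and coloured, named points have an adjusted p under 0.05 (edgeR). Few genes in any list are coloured, Thbs1 (-1.20 and -1.24) lies below 0, and the medians lie between -0.43 and 0.80.

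A list of macrophage identity genes, not all of them particular to resident macrophages, was read for the label of the populations. All 11 were tested, 6 were called higher in niche macrophages of normal marrow and 5 in metastatic marrow, with medians of 3.69 and 3.82, where 1.5% and 0.574% of tested genes were called higher. In each marrow 10 had a log2 fold change above 0. Itgam went the other way, with -0.87 ± 0.26 SE in normal (edgeR adjusted p = 0.0983) and -0.34 ± 0.26 SE in metastatic marrow (edgeR adjusted p = 0.974). The list holds Mertk and 4 of the sorting antigens (Vcam1, Cd163, Adgre1 and Itgam), so it is not independent of either the sort or the clearance genes. Spic, the transcription factor of red pulp and island macrophages, was called in both marrows (log2 fold change 7.24 ± 0.95 SE, edgeR adjusted p = 0.000153, and 4.25 ± 0.82 SE, edgeR adjusted p = 0.0117), the latter lost without general metastatic replicate 2 or 3 or niche metastatic replicate 1, with limma-voom and in those 9 libraries without a replicate block. Its log2 fold change was 9.08 without general normal replicate 3 in normal marrow, and 5.01 without general metastatic replicate 1 and 3.37 without niche metastatic replicate 1 in metastatic marrow. C1qa was between 0.255 and 13.6 CPM in general and between 12.02 and 149 CPM in niche libraries. Fcgr1, the high-affinity IgG receptor, overlapped between the populations, at 0 to 10.2 CPM in general and 0.1004 to 69.5 CPM in niche libraries. Csf1r, the receptor of macrophage colony-stimulating factor, overlapped too, at 51.6 to 136 and 83.5 to 282.5 CPM.

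The genes whose levels across the 12 libraries were most like those of Mertk, among 8140 tested genes averaging 10 CPM or more, were Zfp945 (Pearson r = 0.969 of log2(CPM + 0.5)), Fcgrt (0.968) and the sorting antigen Vcam1 (0.967). Over the 6 niche libraries alone, Vcam1 kept a correlation of 0.981 with Mertk, against 0.597 for Zfp945 and 0.506 for Fcgrt. Over the 6 general libraries the order was another, with 0.962 for Fcgrt, 0.571 for Zfp945 and -0.118 for Vcam1. Axl was most like Myo10 (0.977), Paqr9 (0.976) and E230029C05Rik (0.971), and Itgav was most like Acp2 (0.945), Cd81 (0.944) and Rxylt1 (0.942). Among the clearance genes, Pros1 had negative correlations with each of the 6 other tested ones over 12 libraries, from -0.635 with Mertk to -0.498 with Itgb5, and the pairs without Pros1 had positive ones. Over the 6 niche libraries the correlations of Pros1 lay between -0.253 with Axl and 0.608 with Timd4, and those of Timd4 with the 5 other genes between -0.56 with Itgb5 and -0.0687 with Itgav. Mertk correlated with Axl at 0.95 over 12 libraries and 0.930 over the niche libraries, and Mertk with Itgav at 0.880 and 0.954. Mertk with Timd4 gave 0.945 over 12 libraries and -0.232 over the niche libraries, so that this likeness lay between the populations. These correlations are descriptions over libraries that share their group, scaling and sort.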

How the data were processed

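RNA was extracted from sorted cells, depleted of ribosomal RNA and made into Illumina libraries, per the labels. The deposited table holds expected counts per gene, 75.0% of them whole numbers within 1e-09, with no normalization in the values. The submitters' processing notes name STAR 2.7.3a, Partek, DESeq2 1.40.2, R 4.3.1 and the mm10 build; the counting program, annotation and strand setting are not given in the sources used here. The titles call both sorts general macrophages, so the population was read from the sorting antigens. Columns of niche macrophages from normal marrow carry other numbers than the sample titles and are called A, B and C.

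Counts were rounded, filtered with filterByExpr (12882 genes left), scaled by TMM and fitted with edgeR 4.0.16 (R 4.3.3) over all 12 libraries as 4 group means, with quasi-likelihood F-tests and Benjamini-Hochberg adjustment over all tested genes; genes with an adjusted p under 0.05 are called. SE was derived from the F statistic. Pairs of libraries within a group had chi-square statistics of 139 to 411 per degree of freedom, so each library counted once. The biological coefficient of variation was 1.30. Coordinates and transcript lengths came from GENCODE M21, where 18026 symbols matched. Intervals and floors cover counting error alone: without molecular identifiers, reads are not independent molecules. The procedure was tested on simulated counts.

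The clearance genes, the pathway and marker lists and the tests were chosen with earlier results of these data known. All 10 clearance genes are named; of each list, the called genes (at most the 4 with the smallest p), or the 1 with the smallest p where none is called; for each called clearance gene, the 3 genes with the highest correlation; and the sorting antigens. Others are named as chosen after their values were seen; Csf1r, Fcgr1 and Cdh5 are such, and served to read the labels. A gene of the pathway lists is not reported here and was left out of their counts. The alternatives tried were no low-count filter, RLE scaling, scaling by library size, DESeq2 1.42.0, limma-voom (limma 3.58.1) with quality weights, only the 6 libraries compared, a replicate block, each library left out, and median transcript length. The average over both marrow states and the same 9 libraries without the block were added after the data were seen.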

Additional observations from a re-analysis of the deposited data

Results flagged for a closer look

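Among 48 named genes, 3 had all 3 metastatic libraries above all normal ones in general macrophages and below all normal ones in niche macrophages. These were Itgav, the antigen transcript Ccr3 and Rxylt1, a gene named for its likeness to Itgav. The difference of the metastasis effects, niche minus general, was -0.99 for Itgav (unadjusted p of 0.0316, edgeR adjusted p = 0.610), -2.05 for Ccr3 (unadjusted p of 0.000840, edgeR adjusted p = 0.452) and -7.13 for Rxylt1 (unadjusted p of 0.0267, edgeR adjusted p = 0.597), all on the log2 scale. None passed after adjustment. The general normal libraries of Rxylt1 held 1 count in all, so its fitted value depends on counts near 0. Across all 12882 tested genes, 45 (0.349%) had this pattern and 23 (0.179%) its opposite. No group had more than 3 libraries, so single libraries were not examined for outlying values.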

How the results depend on the processing

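Of 653 alternative values of the clearance genes' log2 fold changes, 626 kept their direction and their side of the threshold. Most of these had not passed in the main fit and stayed so. Mertk stayed called in 19 of 19 alternatives in normal and 21 of 21 in metastatic marrow, and Itgav in 19 of 19 in normal marrow. The average over both marrow states, a single test, is counted in each of these totals. The clearance genes called in normal marrow numbered 3, and 5 with DESeq2 (Timd4 and Itgb5 added) or with both marrow states averaged (Timd4 and Stab2 added). With limma-voom they numbered 4 (Timd4 and Stab2 added, Axl lost). In metastatic marrow they numbered 2, 3 with DESeq2 (Timd4 added), 2 with limma-voom (Timd4 added, Axl lost) and 5 when averaged. These counts include Timd4 and Stab2, which the filter admitted through their niche libraries, so their added calls are no separate support. Leaving both out, these settings added only Itgb5 with DESeq2 in normal marrow and Itgav when averaged in metastatic marrow. DESeq2 gave Stab2 no adjusted p in any comparison. Directions that turned were all of values that had not passed: the difference of metastasis effects of Stab2 was -2.60 with limma-voom against 0.81, and leaving out 1 library gave -2.72 to 1.502. The same fits gave -2.09 to 1.32 for Mertk, -0.16 to 0.42 for Pros1 and -0.49 to 0.012 for Timd4 between marrows in general macrophages, and -2.56 to 0.95 for Mertk and -0.049 to 3.26 for Pros1 in the difference; the cause was not tested. Across all genes, DESeq2 called 1825 and 480 genes between populations in normal and metastatic marrow, limma-voom 186 and 178, and the 6 libraries alone 163 and 97, against 318 and 107. Among the fits without 1 library, the number in normal marrow was lowest, 176, without general normal replicate 1, and that in metastatic marrow, 66, without niche metastatic replicate 1. For metastasis in niche macrophages, 66 genes were called without niche normal library B against 1. Scaling by library size moved the median log2 fold change of all genes from 0.04 to 0.29 in metastatic marrow and from -0.17 to 0.06 for metastasis in niche macrophages, and turned the direction of none of the clearance genes. With the replicate number as a block, over the 9 libraries of the groups sharing numbers, 2 clearance genes were called in metastatic marrow and 0 for metastasis in general macrophages, as without it, and 117 genes in all against 104. Same-numbered libraries deviated with correlations of -0.00738 to 0.0337, and differently numbered ones with -0.0335 to 0.014. Values this near 0 cannot decide whether the numbers pair the libraries. Depth limits Tyro3 and the general levels of Timd4 and Stab2, which lie at or near 3 counts, and Gas6 and Mfge8 lie there in all libraries but 2 and 1. P-values rest on 3 libraries a group.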
